A study of Mus musculus with 18 samples.

Results

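The 10 endoplasmic reticulum (ER) chaperone and folding-enzyme genes Hspa5, Hsp90b1, Pdia3, Pdia4, Pdia6, P4hb, Calr, Canx, Sdf2l1 and Dnajb11 were taken by name from the gene tables. They are 10 of 14001 genes with reads in any library, and each had at least 1281 reads in every library. They were read in RAW264.7 cells, an established mouse macrophage-like line of no stated genetic alteration. The cells carried 4-thiouridine (4sU), a uridine analogue that enters new RNA and is read as a T-to-C conversion after chemical treatment. Ribosome footprints, which are the fragments left under ribosomes after RNase I digestion, were set against cytoplasmic input RNA of the same lysate.

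Each of 9 lysates gave 1 footprint library and 1 input library. In experiment 1 the cells had 200 µM 4sU for 20, 40, 60, 90 or 120 min, or none (the 0 min lysate). In experiment 2 they had it for 20, 30 or 40 min, with no unlabelled lysate. Cycloheximide, which stalls elongating ribosomes, was in the wash and lysis buffers of every sample, so all groups share it. Every condition holds 1 lysate per experiment of 1 cell line, and nothing in the labels says that lysates came from separate cultures, so p-values measure the spread between these samples, which may be technical.

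ER chaperones fold proteins as they enter the secretory pathway. The Hsp70 and Hsp90 members hold unfolded chains with the help of cochaperones, the lectin chaperones calnexin and calreticulin hold glycoproteins, and the protein disulfide isomerases make and rearrange disulfide bonds. When unfolded protein accumulates, the unfolded protein response raises transcription of many of these genes through ATF6 and XBP1, and in macrophages the same compartment makes lysosomal, surface and secreted proteins.

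The ER stress response element, known from human chaperone promoters, is a CCAAT box and a CCACG spaced by 9 bases. The promoter matches are printed because the element is known from promoters of genes of this kind. The search used the letters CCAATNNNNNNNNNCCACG on both strands of RefSeq promoter windows of 300 bases, 250 before and 50 after each gene's start (build GRCm38.p6). It matched 39 of 32851 windows, or 0.119%, and the windows of 5 of the 10 genes. The GENCODE annotation given further below places the starts of Hspa5, Hsp90b1, Pdia3, Pdia6 and Calr upstream of the RefSeq starts, and that of Pdia4 downstream. Of the sites printed, only those of Hspa5 and Pdia3 therefore lie inside the GENCODE genes. CCAAT and CCACG are in capitals.
Hspa5, chr2:34772025-34772043, plus strand: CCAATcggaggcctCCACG
Hsp90b1, chr10:86705638-86705656, minus strand: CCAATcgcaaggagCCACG
Hsp90b1, chr10:86705533-86705551, plus strand: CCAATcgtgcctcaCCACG
Pdia6, chr12:17266491-17266509, plus strand: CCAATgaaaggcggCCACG
Calr, chr8:84847075-84847093, plus strand: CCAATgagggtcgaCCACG
Canx, chr11:50325800-50325818, minus strand: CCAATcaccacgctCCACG

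With only the first 3 letters of the second part required (CCAATNNNNNNNNNCCA, which every match above also holds), 358 windows matched, or 1.09%, among them those of 7 members. The relaxed search added further sites in Hspa5, Hsp90b1 and Calr, whose windows already held the full form, and these sites in Pdia3 and Pdia4.
Pdia3, chr2:121413823-121413841, plus strand: CCAATcggcagttaCCAgc
Pdia3, chr2:121413873-121413891, plus strand: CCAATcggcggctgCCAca
Pdia4, chr6:47813602-47813620, plus strand: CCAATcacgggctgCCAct
The windows of P4hb, Sdf2l1 and Dnajb11 held neither form. The window of Dnajb11 held a related pair of parts, ATTGG and CCACG with 1 base between them, which occurred in 12 windows, or 0.0365%. A plain CCAAT occurred in all 10 members' windows and in 37.4% of all windows. Of the other lists, the first form was in 2 of 15 windows of other ER folding factors, 1 of 16 of stress sensors and degradation factors, and 0 of 14 of cytosolic and mitochondrial heat-shock proteins. The relaxed form was in 2, 5 and 0 of these windows, and a plain CCAAT in 8, 12 and 7. The related pair of parts was in 1 of the 16 windows of sensors and degradation factors and 1 of 8 of oligosaccharyltransferase genes. All 8 of the latter held a plain CCAAT. These matches describe the letters in the windows and were not tested as sites of binding.

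The window of Hspa5 is given whole because its mRNA stood apart from the other 9 in labelling. It spans chr2:34771840-34772139 on the plus strand, with the CCAAT and CCA parts of its relaxed matches in capitals.
Hspa5 promoter: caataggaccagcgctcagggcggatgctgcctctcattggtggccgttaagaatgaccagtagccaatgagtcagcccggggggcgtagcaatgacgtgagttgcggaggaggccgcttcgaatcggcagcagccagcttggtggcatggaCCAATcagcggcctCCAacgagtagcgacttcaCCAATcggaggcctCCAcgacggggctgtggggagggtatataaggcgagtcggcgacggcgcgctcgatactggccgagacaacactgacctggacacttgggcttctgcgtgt

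The libraries held 11771175 to 87536081 reads in footprints and 6230562 to 48139330 in input, with the 3 libraries of each material in experiment 2 deeper than the 6 of experiment 1. In footprints of experiment 1 the share of all reads with a conversion was 0.298% at 0 min and 5.54% at 120 min, and in input it was 0.289% at 0 min and 8.07% at 120 min. Of 12 macrophage marker symbols, 11 had reads, at a summed level of 10192 to 13729 CPM (reads scaled to library size) in footprints and 6996 to 8742 in input. Of 20 markers of other cell types 14 were at 0 in all libraries, and the sum was 0.557 to 2.55 CPM in footprints and 0.292 to 1.74 in input.

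The 10 genes took 1.56% to 2.23% of footprint reads (median 1.85%) and 1.06% to 1.37% of input reads (median 1.16%). Levels between genes were compared only per kilobase of coding sequence, as CPM averaged over the 9 footprint libraries. On that scale Calr was highest at 2815 ± 374 CPM per kb (SD, n = 9), followed by Hspa5 at 2153 ± 481, Pdia3 at 1850 ± 295 and Hsp90b1 at 1780 ± 336. Canx at 1178 ± 190, P4hb at 991 ± 121 and Pdia6 at 806 ± 76.0 made a middle range, and Dnajb11 at 316 ± 37.5, Sdf2l1 at 303.5 ± 44.8 and Pdia4 at 294 ± 29.0 were lowest. Neighbours in this order from Hspa5 to Hsp90b1, from Canx to P4hb, and among the last 3 differed by no more than the larger SD of the pair.

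Footprints were compared with input to see which of these mRNAs carried more ribosome-protected reads than their share of input RNA. Of these 10 genes 8 were higher in footprints and 0 were lower, against 35.3% and 40.3% of the 10592 genes tested (edgeR quasi-likelihood test, Benjamini-Hochberg adjusted p under 0.05). Their median log2 ratio was 0.63, and that of all genes was -0.04. The disulfide isomerase Pdia3 had the highest ratio of the 10 in 9 of 9 lysates, while the cochaperone genes Dnajb11 and Sdf2l1 were the lowest in 5 and 4. In bulk samples fewer cells of a type and less RNA per cell cannot be told apart, and a ratio of shares does not count ribosomes per mRNA.

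Hspa5 encodes BiP, the ER Hsp70 that binds unfolded chains and holds the stress sensors inactive. It had 3258 to 5670 CPM in footprints (median 3932) and 1909 to 2882 CPM in input (median 2337). The ranges did not overlap, and the log2 ratio was 0.84 (SE 0.106, edgeR adjusted p = 3.20e-06), positive in 9 of 9 lysates. The ratio averaged 0.74 ± 0.12 in the 6 lysates of experiment 1 and 1.02 ± 0.18 in the 3 of experiment 2 (SD).

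Hsp90b1 encodes Grp94, the ER Hsp90 that folds integrins and Toll-like receptors. It had 2812 to 5399 CPM in footprints (median 4154) and 1822 to 2768 CPM in input (median 2423), with no overlap. Its log2 ratio was 0.88 (SE 0.109, edgeR adjusted p = 2.72e-06). The lysates varied between 0.37 at 60 min of experiment 1 and 1.16 at 120 min of experiment 1, and the 40 min lysate of experiment 2 was also low at 0.40.

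The cochaperone genes stood apart from both. Dnajb11 encodes ERdj3, a J-domain protein that delivers substrates to BiP, and had 291 to 414 CPM in footprints (median 330) and 277 to 400 CPM in input (median 315). Sdf2l1, whose product binds ERdj3, had 162 to 243 CPM in footprints (median 205) and 152 to 242 CPM in input (median 187). For each of these genes the ranges overlapped almost wholly. The log2 ratio of Dnajb11 was 0.09 (SE 0.0695, edgeR adjusted p = 0.241), positive in 6 of 9 lysates, and that of Sdf2l1 was 0.10 (SE 0.0883, edgeR adjusted p = 0.294), positive in 5 of 9. DESeq2's Wald test called Dnajb11 narrowly (DESeq2 adjusted p = 0.0491). The ratio of Sdf2l1 averaged -0.05 in experiment 1 and 0.40 in experiment 2, and a fit of experiment 2 alone gave 0.38 (edgeR adjusted p = 0.00353), an analysis added after the data were seen.

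The lectin chaperones were both higher in footprints. Calr, the soluble calreticulin, had 2697 to 4239 CPM in footprints (median 3401) and 1490 to 2074 CPM in input (median 1732). Its log2 ratio of 1.00 (SE 0.0798, edgeR adjusted p = 1.92e-08) ranked 2 or 3 among the 10 in every lysate. Canx, the membrane-bound calnexin, had 1644 to 2711 CPM in footprints (median 2067) and 1134 to 1561 CPM in input (median 1292), and a log2 ratio of 0.67 (SE 0.0767, edgeR adjusted p = 1.10e-06). Neither gene's ranges overlapped, and both had their lowest ratio of experiment 1 in the 60 min lysate, at 0.59 for Calr and 0.25 for Canx.

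Pdia3 encodes ERp57, the disulfide isomerase that works with both lectin chaperones. In footprints of experiment 1 it had 2637, 2595, 2604, 2209, 3050 and 3517 CPM from 0 to 120 min, and in experiment 2 it had 2863, 3421 and 2377 CPM at 20, 30 and 40 min. In input it had 396, 386, 320, 464, 723 and 476 CPM in experiment 1, and 898, 834 and 544 CPM in experiment 2. The footprint libraries were all far above the input libraries, and the input values spread by 37.2% of their mean (coefficient of variation), against 15.9% in footprints and 6.94% to 15.1% for the other members' input. The log2 ratio was 2.36 (SE 0.164, edgeR adjusted p = 4.09e-09), rank 73 of 10592 genes. It ranged from 1.67 at 20 min of experiment 2 to 3.03 at 40 min of experiment 1, so that the lysates differed from each other by more than for any other member.

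The other isomerases moved less. P4hb, which encodes PDI, had 1377 to 1944 CPM in footprints (median 1437) and 871 to 1401 CPM in input (median 1080), and its ranges overlapped although the ratio was positive in 9 of 9 lysates. Its log2 ratio was 0.49 (SE 0.0673, edgeR adjusted p = 7.75e-06). Pdia4, which encodes ERp72, had 505 to 637 CPM in footprints (median 565) and 335 to 415 CPM in input (median 372), with a log2 ratio of 0.58 (SE 0.0645, edgeR adjusted p = 8.28e-07). Pdia6, which encodes the isomerase P5, had 988 to 1300.4 CPM in footprints (median 1042) and 631 to 933 CPM in input (median 764), with a log2 ratio of 0.53 (SE 0.0626, edgeR adjusted p = 1.76e-06). Neither Pdia4 nor Pdia6 overlapped between materials.

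**Figure D1:**
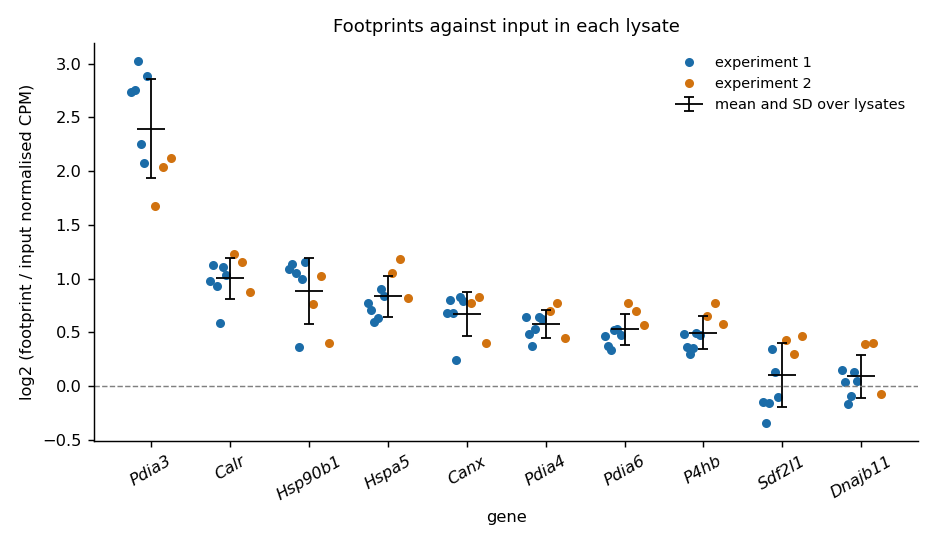
Log2 ratio of footprint to input CPM for each of the 10 genes, 1 point per lysate (blue, experiment 1; orange, experiment 2), with the mean and SD over 9 lysates in black. Pdia3 lies apart from the other 9 in every lysate, and Sdf2l1 and Dnajb11 lie on both sides of 0.

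Some reads of these genes cannot be assigned with certainty, since neither the counted region nor the use of strand is stated in the labels. In the GENCODE vM21 annotation of GRCm38, Pdia3 (ENSMUSG00000027248, chr2:121413775-121438687, plus strand) shares 18 bases with Catsper2 on the other strand. Pdia6 (ENSMUSG00000020571, chr12:17266545-17284770, plus strand) shares 50 with Atp6v1c2, also on the other strand. Dnajb11 (ENSMUSG00000004460, chr16:22857845-22879634, plus strand) shares 4652 bases with the antisense gene Gm30505, and Hsp90b1 (ENSMUSG00000020048, chr10:86690209-86705509, minus strand) shares 4598 with the pseudogene 1810014B01Rik on the other strand. Hsp90b1 also holds Gm15344 and Gm25745, and Pdia4 (ENSMUSG00000025823, chr6:47796141-47813430, minus strand) holds Mir704. Calr (ENSMUSG00000003814, chr8:84841850-84846934, minus strand) has 1 named pseudogene, Calr-ps. No overlapping gene was annotated for Hspa5 (ENSMUSG00000026864, chr2:34771970-34777547, plus strand), P4hb (ENSMUSG00000025130, chr11:120560298-120573253, minus strand), Canx (ENSMUSG00000020368, chr11:50293961-50325673, minus strand) or Sdf2l1 (ENSMUSG00000022769, chr16:17130138-17132383, minus strand).

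Other genes of the same compartment gave a mixed pattern. Of 22 other ER folding factors, 11 were higher in footprints and 3 lower (median log2 ratio 0.21), with Fkbp2, a prolyl isomerase, at 1.30 and the isomerase genes Pdia5 at 1.18, Txndc12 at 0.97 and Dnajc10 at -1.16. Of 17 translocon and signal peptidase genes, which pass chains into the ER, 13 were higher and 3 lower (median 0.59), with Spcs3 at 1.08 and Ssr3 at 1.02. Of 10 oligosaccharyltransferase genes, which add the glycans that lectin chaperones read, 8 were higher and 2 lower (median 0.31), with Dad1 at 1.25 and the catalytic subunit gene Stt3b at -0.56.

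The sensors and degradation factors of the same stress response lay mostly on the other side. Of 20 such genes, 5 were higher in footprints and 11 lower (median -0.45), with the stress transcription factor Atf4 at -2.42, the degradation lectins Edem1 at -1.82 and Edem2 at -1.56, and the sensor kinase Eif2ak3 (PERK) at -1.46. Of 15 cytosolic and mitochondrial heat-shock proteins tested, 13 were higher and 0 lower (median 0.68), among them Hsp90ab1 at 2.15 and Bag3 at 1.40. The members' median of 0.63 thus lay near that of the heat-shock and translocon lists, and the difference between lists was not tested. Every gene named here passed the same edgeR threshold.

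Time with 4sU was used as the treatment to ask whether these mRNAs moved while the label was present. In input 0 of the 10 passed the test in either direction over hours of 4sU, against 0.403% of 9927 genes higher and 5.83% lower (edgeR, Benjamini-Hochberg), while 5 had an unadjusted p under 0.05, as did 26.1% of all genes tested. The log2 changes per hour ran between -0.02 for Pdia3 (SE 0.285) and 0.25 for P4hb (SE 0.0762, edgeR adjusted p = 0.0810). With the experiment as a replicate block 4 members passed, P4hb at 0.20, Hsp90b1 at 0.21, Dnajb11 at 0.18 and Pdia6 at 0.17 per hour (edgeR adjusted p = 0.0279, 0.0334, 0.0353 and 0.0404), and in that fit 3.85% of all genes were higher and 11.5% lower. DESeq2's Wald test also called 4, namely Dnajb11 at 0.22, P4hb at 0.27, Pdia6 at 0.22 and Canx at 0.18 (DESeq2 adjusted p = 0.00429, 0.0101, 0.0119 and 0.0358), with 3.5% of all genes higher and 9.45% lower. Without the 120 min lysate edgeR called 0 of all genes in input, with 988 at an unadjusted p under 0.05.

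In footprints 2 of the 10 rose with hours of 4sU, against 7.03% of 10226 genes that rose and 13.4% that fell. They were the isomerase genes P4hb, at 0.21 per hour on the log2 scale (SE 0.0582, edgeR adjusted p = 0.0254), and Pdia6, at 0.18 per hour (SE 0.0546, edgeR adjusted p = 0.0393). In experiment 1 P4hb had 1425, 1396, 1437, 1377, 1692 and 1944 CPM in footprints from 0 to 120 min, and Pdia6 had 993, 988, 993, 1110, 1162 and 1300.4 CPM. Both were thus flat up to 40 min and highest at 120 min, and neither was called without the 90 or without the 120 min lysate (edgeR adjusted p = 0.0764 and 0.481 for P4hb, 0.0960 and 0.435 for Pdia6). P4hb was also lost without 20 min of experiment 1 (0.0529), and Pdia6 without 0, 20 or 40 min of experiment 1 or 30 min of experiment 2 (0.0520 to 0.0840). With no filter on low counts 0 members were called, against 2.05% of all genes higher. With the experiment as a replicate block 3 were called, P4hb at 0.22, Pdia6 at 0.19 and Sdf2l1 at 0.26 per hour (edgeR adjusted p = 0.0189, 0.0247 and 0.0434), against 9.23% of all genes higher.

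Hspa5 was the member whose footprint level differed most clearly between the experiments. In footprints it had 3258, 3508, 3524, 3395, 3932 and 4259 CPM from 0 to 120 min of experiment 1, and 5503, 5670 and 5077 CPM at 20, 30 and 40 min of experiment 2. All 3 libraries of experiment 2 were above all 6 of experiment 1, which was so for no other member in footprints. Its change per hour in footprints was -0.04 over all 9 libraries (SE 0.155) and 0.18 within experiment 1 (edgeR adjusted p = 0.0392), where P4hb at 0.23 and Pdia6 at 0.21 also passed, as did 10.8% of all genes in that direction. Experiment 2 spans 20 to 40 min and was not fitted over time alone.

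**Figure D2:**
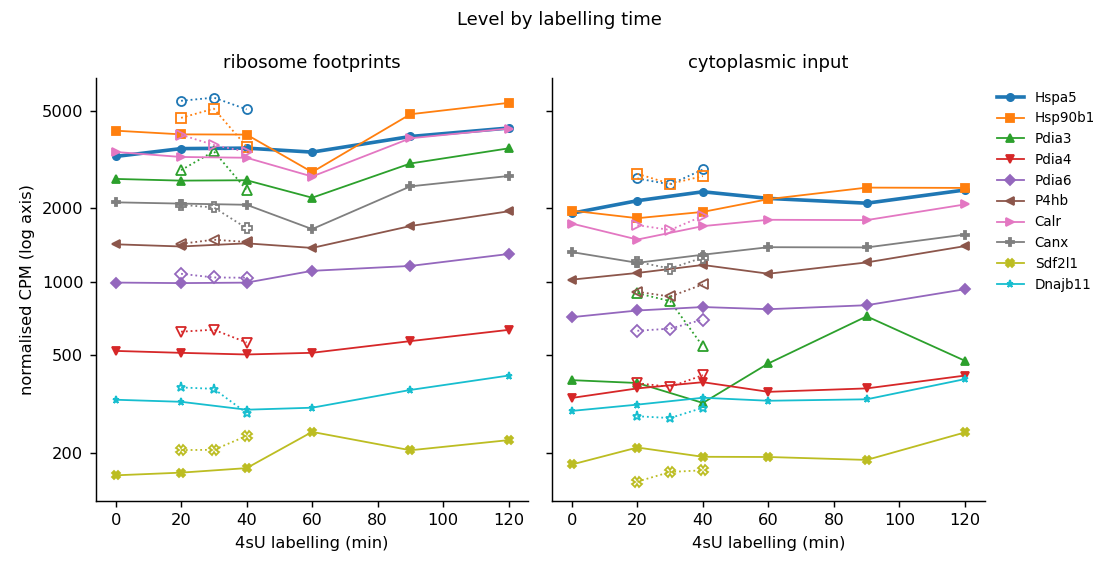
Normalised CPM (log axis) of the 10 genes against minutes of 4sU in footprints (left) and input (right), with filled points and solid lines for experiment 1 and open points and dotted lines for experiment 2. Pdia3 changes its place among the genes between the panels, and the footprint points of Hspa5 in experiment 2 lie above its own points in experiment 1.

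The footprint to input ratio was not seen to move with time. Of 10592 genes 0 were called in either direction (0%, edgeR, with 255 at an unadjusted p under 0.05), and of the members 0 had an unadjusted p under 0.05. DESeq2's Wald test called 3 genes higher and 6 lower, with no member among them. The members' changes in the log2 ratio ran between -0.08 per hour for Dnajb11 (SE 0.111) and 0.15 for Pdia3 (SE 0.302), and the width of these errors leaves changes of similar size undetectable.

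The share of reads with a conversion is a measure of newly made mRNA, which also depends on background and on how many T positions the reads hold. In footprints Hspa5 had 0.214%, 0.818%, 2.84%, 4.43%, 6.45% and 9.17% at 0, 20, 40, 60, 90 and 120 min of experiment 1, and 0.435%, 0.987% and 1.76% at 20, 30 and 40 min of experiment 2. In input it had 0.242%, 1.90%, 3.72%, 5.62%, 5.96% and 11.2% in experiment 1 and 1.05%, 2.41% and 3.23% in experiment 2. Within each experiment and material the share was higher at every later time. At 120 min the 95% Wilson intervals, which cover counting error only, were 8.95% to 9.40% of 63832 reads in footprints and 10.7% to 11.7% of 14714 reads in input. Hspa5 had the highest converted share of the 10 in all 8 labelled footprint libraries and all 8 labelled input libraries.

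The other 9 mRNAs at 120 min had 1.52% to 3.27% in footprints and 2.13% to 4.00% in input, below the share of all reads in both. The cochaperones came next to Hspa5, with Dnajb11 at 3.27% in footprints and 3.91% in input, and Sdf2l1 at 3.02% in footprints and 4.00% in input. Hsp90b1, the partner chaperone of Hspa5, was among the least labelled at 1.52% in footprints and 2.53% in input. Calr had 2.26% in footprints and 3.37% in input, while Canx had 1.64% in footprints and 2.78% in input.

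The isomerase mRNAs were close together. At 120 min P4hb had 1.89% in footprints and 2.91% in input, Pdia3 had 1.78% in footprints and 3.02% in input, and Pdia4 had 1.80% in footprints and 2.73% in input. Pdia6 had nearly the same share in both, 2.02% in footprints (interval 1.83% to 2.23%) and 2.13% in input (interval 1.79% to 2.53%).

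**Figure D3:**
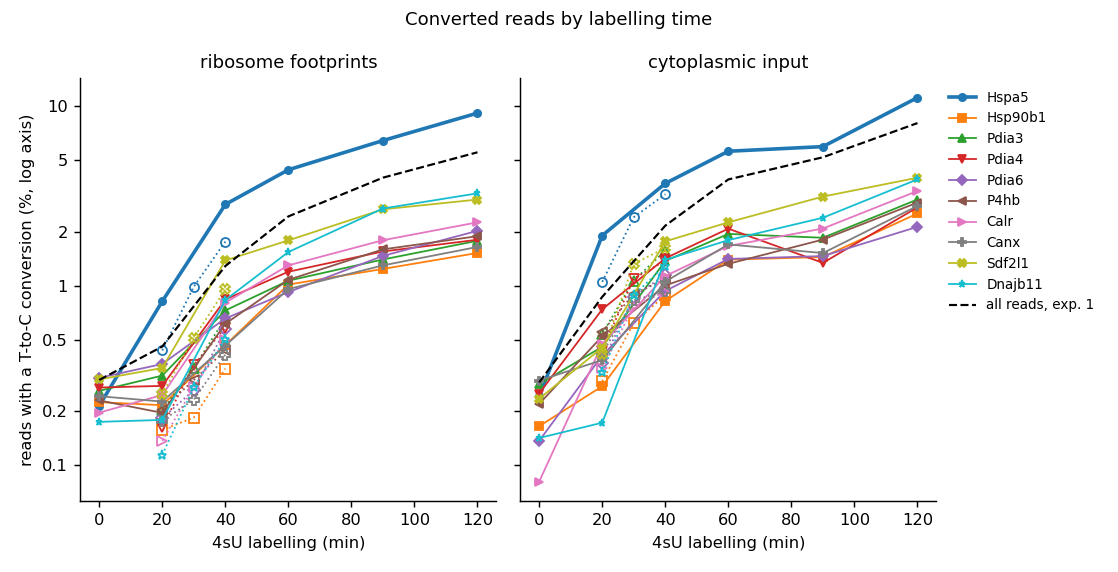
Percentage of reads with at least 1 T-to-C conversion (log axis) against minutes of 4sU for each gene in footprints (left) and input (right), with open points for experiment 2 and the dashed line for all reads of experiment 1. In experiment 1 Hspa5 lies above the dashed line from 20 min on in both panels, and at 120 min the other 9 genes lie below it.

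Early shares in footprints were close to those without 4sU, which were 0.174% to 0.306% in footprints and 0.0807% to 0.296% in input. At 20 min of experiment 1 only the interval of Hspa5 lay above that of the unlabelled footprints, and at 20 min of experiment 2 again 1 member did, while 9 of the 10 had a share below the unlabelled one. In input 3 members were above the unlabelled interval at 20 min of experiment 1 and 5 at 20 min of experiment 2. At 30 min of experiment 2 all 10 were above the unlabelled interval in input. In footprints of that lysate only 3 were above it, and 3 had a share below the unlabelled one. All 10 were above the unlabelled interval in both materials from 40 min on. Experiment 2 has no unlabelled library of its own, so its background was not measured.

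Relative labelling is a gene's log2 odds of conversion less the median over the genes tested in that input library. It sets each mRNA against the others labelled for the same time. The median covers only genes with at least 50 reads on average and at least 50 converted, so it is not that of all genes. Of the 10, 1 member lay above the median and 9 below it, against 35.2% of 7045 genes above and 35.2% below (limma, Benjamini-Hochberg adjusted p under 0.05). The members' median was -1.03, and that of all genes tested was -0.03. Hspa5 stood at 0.70 (SE 0.174, limma adjusted p = 0.00349, n = 8 libraries) and was above 0 in 8 of 8.

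The value of Hspa5 was not the same at all times. In experiment 1 it was 1.44, 0.84, 0.47, 0.08 and 0.14 at 20, 40, 60, 90 and 120 min, and in experiment 2 it was 0.92, 0.79 and 0.88 at 20, 30 and 40 min. It was thus highest at 20 min and close to the median of the genes tested at 90 and 120 min. Its converted share in input was still above that of all reads, at 5.96% against 5.20% at 90 min and 11.2% against 8.07% at 120 min. Experiment 1 alone gave 0.59, which did not pass the threshold (limma adjusted p = 0.0593). The fall with time was not particular to Hspa5. Every other member except Dnajb11 was also lower at 120 than at 20 min of experiment 1. Pdia4 went from 0.09 to -2.01, P4hb from -0.43 to -1.93 and Pdia6 from -0.78 to -2.38, while Dnajb11 rose from -1.89 to -1.48. In input at 20 min of experiment 1, however, only 3 members (Hspa5, P4hb and Calr) had an interval above the unlabelled one. Dnajb11 had 4 converted of 2326 reads there, or 0.172%, against 0.141% without 4sU. Background was not subtracted, and its part in these changes was not tested.

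Hsp90b1 was the least labelled of the 10 at -1.46 (SE 0.173, limma adjusted p = 1.4e-05), and 5.21% of the genes tested had a value no higher than its own. Pdia6 stood at -1.23, Canx at -1.16, Calr at -1.07, Dnajb11 at -1.04 and P4hb at -1.02 (limma adjusted p between 0.000114 and 0.0014). Pdia4 at -0.84, Pdia3 at -0.81 and Sdf2l1 at -0.57 were nearer to the median (limma adjusted p = 0.0104, 0.00573 and 0.0120). With conversions counted per T position, the value of Sdf2l1 was -0.34 and did not pass (limma adjusted p = 0.100).

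**Figure D4:**
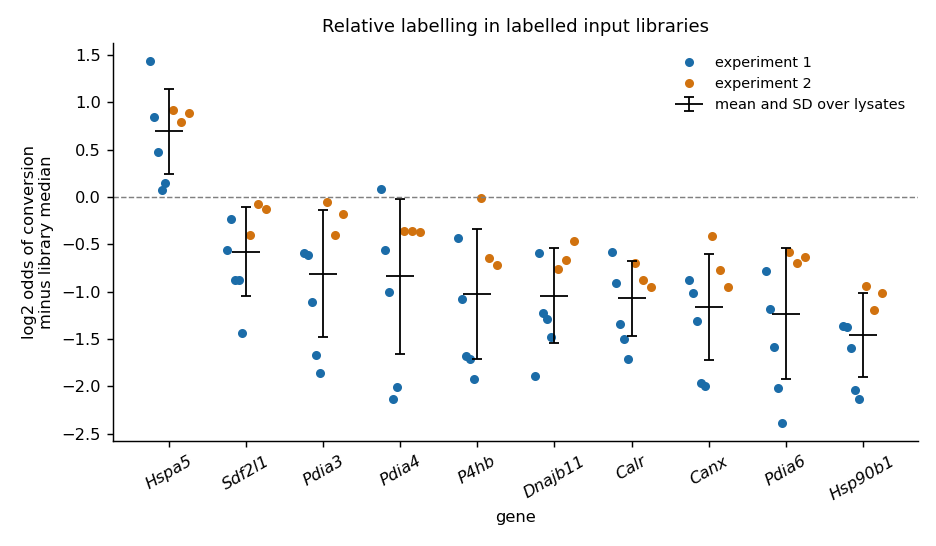
Relative labelling in input, in log2 odds after subtraction of the library's median over the genes tested. Each gene has 1 point per labelled library (blue for experiment 1, orange for experiment 2), with the mean and SD over 8 libraries in black. Hspa5 alone has all 8 points above 0, and Hsp90b1 has the lowest mean.

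The 5 genes whose windows held the full stress element included both ends of this order, with Hspa5 at 0.70 and Hsp90b1 at -1.46, Pdia6 at -1.23, Canx at -1.16 and Calr at -1.07 as the 4 lowest of the 10. The 5 without it ran between -1.04 and -0.57. This is a description of 10 genes and carries no test.

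Reads with more T positions have more chances of a conversion, and the members differed in this. Means over libraries ran between 5.17 T positions per read for Calr and 7.16 for Canx in footprints, and between 5.32 for Calr and 7.19 for Pdia3 in input. Hspa5, at 6.60 in footprints and 6.55 in input, lay between them. Per 100 T positions at 120 min Hspa5 had 1.84 conversions in footprints and 2.38 in input, while Calr had 0.549 in footprints and 0.781 in input, and Hsp90b1 had 0.315 in footprints and 0.534 in input. Reads with at least 2 conversions made up a median of 13.7% of the converted footprint reads of Hspa5 and 22.4% of its converted input reads, and Pdia3 was close to it at 13.1% in footprints and 22.4% in input.

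Related lists were also mostly below the library median. Of 17 other ER folding factors 1 was above and 13 below (median -0.96), of 16 translocon genes 0 and 10 (median -0.71), and of 9 oligosaccharyltransferase genes 0 and 7 (median -0.75). The sensors and degradation factors were split, with 7 of 19 above and 6 below (median -0.29), and Atf4 stood at 2.92 and Eif2ak3 at 1.63. Heat-shock proteins were split as well, with 4 of 15 above and 5 below (median -0.24), Bag3 at 2.11 among them.

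Conversion in footprints was set against input of the same time to ask how labelled mRNA was represented on ribosomes. All 10 members had lower odds of conversion in footprints, against 59.4% of 8276 genes lower and 0.145% higher (edgeR on converted and unconverted reads, Benjamini-Hochberg). The members' median log2 odds ratio was -0.81 and that of all genes -0.79. The difference was thus shared by most genes.

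Canx had the lowest log2 odds ratio at -1.01 (SE 0.175, edgeR adjusted p = 2.47e-07), followed by Pdia3 at -0.998 (SE 0.178, edgeR adjusted p = 6.19e-07). P4hb and Pdia4 stood at -0.95 each, Hsp90b1 at -0.84, Calr at -0.79, Dnajb11 at -0.74 and Pdia6 at -0.65 (edgeR adjusted p between 2.29e-06 and 0.00222). Hspa5 was at -0.71 (SE 0.163, edgeR adjusted p = 0.000117) and Sdf2l1 closest to 0 at -0.60 (SE 0.227, edgeR adjusted p = 0.0190). When each library's median was subtracted, a limma analysis added after the data were seen, 0 of the 10 were called, with values between -0.09 for Canx and 0.33 for Sdf2l1, against 0.604% of all genes higher and 0.29% lower.

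The experiments cover different labelling times, so they were set side by side only at 20 and 40 min, without a test. At each of these times 9 of the 10 members had a lower odds ratio in experiment 2 than in experiment 1, with a median difference of -0.43 at 20 min and -0.48 at 40 min. Of all reads at 20 min, 0.458% were converted in footprints and 0.866% in input of experiment 1, against 0.313% and 0.813% in experiment 2. At 40 min these shares were 1.29% and 2.16%, against 0.872% and 1.99%. The lower ratio was thus also seen over all reads and was not particular to these genes. Hspa5 had log2 odds ratios of -1.23, -0.40, -0.36, 0.12 and -0.32 at 20, 40, 60, 90 and 120 min of experiment 1, and -1.28, -1.31 and -0.90 at 20, 30 and 40 min of experiment 2, so that its values at 20 min were close. In footprints at 20 min the interval of only 1 member lay above the unlabelled one in each experiment. At 30 min of experiment 2 the intervals of only 3 members did. Most ratios at 20 min, and at 30 min of experiment 2, thus rest on footprint shares near background, which was not subtracted. In experiment 1 alone 7 members passed, against 27.3% of all genes lower, while Pdia6 at -0.27, Sdf2l1 at -0.34 and Dnajb11 at -0.22 did not (edgeR adjusted p = 0.201, 0.210 and 0.403). Sdf2l1 was not called without the 30 min lysate of experiment 2 (-0.46, edgeR adjusted p = 0.0628) or without its 40 min lysate (-0.57, edgeR adjusted p = 0.0527). With only reads of at least 2 conversions counted as converted, 8 members passed, against 55.5% of all genes lower, and Sdf2l1 at -0.81 and Dnajb11 at -0.86 did not (edgeR adjusted p = 0.158 and 0.129). The related lists gave lower odds in 15 of 21 other folding factors, 14 of 20 sensors and degradation factors, 13 of 15 heat-shock proteins, 14 of 16 translocon genes and 7 of 10 oligosaccharyltransferase genes.

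**Figure D5:**
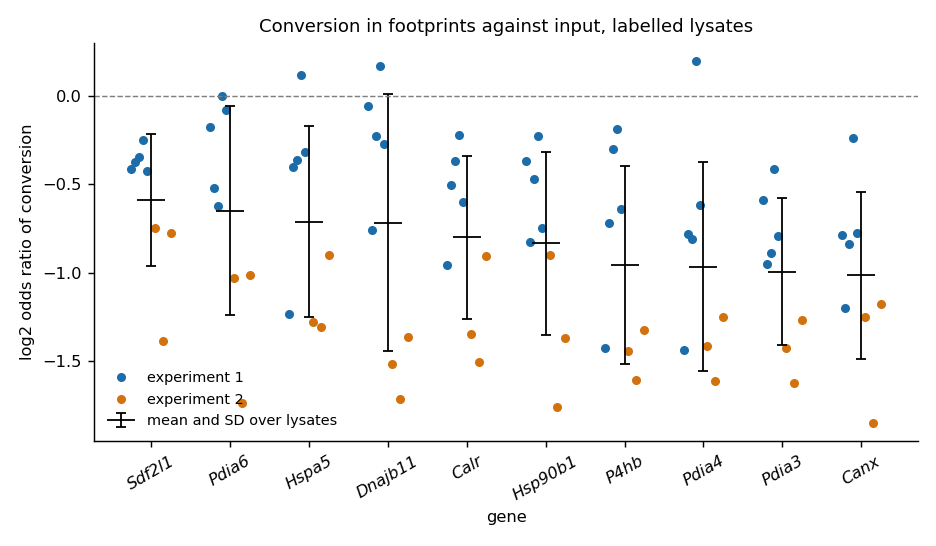
Log2 odds ratio of conversion, footprints against input of the same lysate, for each gene with 1 point per labelled lysate (blue, experiment 1; orange, experiment 2) and the mean and SD over 8 lysates in black. The points of experiment 2 lie mostly below those of experiment 1 for all 10 genes.

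Genes whose level varied most like the members' mean profile were ranked by Pearson's r, averaged over the 9 footprint and the 9 input libraries, among 8836 genes. Those with the highest likeness were Ctsl, a lysosomal protease, at 0.933, Clic4 at 0.926, Odc1, the polyamine synthesis enzyme, at 0.916, Glrx2 at 0.897 and Aplp2 at 0.884. Among the members Calr was most like the mean at 0.864, while Hspa5 had 0.499 and Sdf2l1 0.325. These points share libraries and depth, the experiments differ in level, and members enter their own mean, so the values are descriptions.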

How the data were processed

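The 10 genes, the related lists and the tests were chosen with earlier results of these data known. The values are the authors' deposited read counts per gene, split by T positions (0 to 20) and conversions (0 to 3) in a read, as inferred from the column headings: 0 reads had more conversions than T positions. The submitters' processing notes name Bowtie 0.12.8 and the build mm10. Nothing on the read counter, its annotation, the region counted or strand is given in the sources used here. As the labels' protocols describe, about 10% of each lysate was kept as input and fragmented by alkali, footprints came from RNase I monosomes, and both were size-selected, depleted of ribosomal RNA and treated with NaIO4.

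Counts were summed per gene in all 18 libraries. Ratios and slopes per hour used edgeR 4.0.16 quasi-likelihood tests (R 4.3.3, TMM scaling, filterByExpr), with time as a factor for the ratio. Conversion used edgeR on converted and unconverted reads of the 16 labelled libraries, and relative labelling used limma 3.58.1 on log2 odds (pseudocount 0.5), without background subtraction, for genes with at least 50 reads on average and at least 50 converted. Tests were two-sided, with Benjamini-Hochberg adjustment over all genes tested and a threshold of 0.05. The scripts were tested on simulated data. Named genes were the 10, of each related list up to 4 with the smallest adjusted p in the ratio (not all are printed), and the 5 most like the members' mean. DESeq2 1.42.0, other filters, blocks and left-out lysates were alternatives. Libraries of the same material and time differed between experiments by far more than counting noise (chi-square per degree of freedom 48.7 to 63.0).

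The pairing of footprints and input by lysate comes from the protocol. After removal of material means, partners correlated at 0.109 to 0.530, and 3 of 9 inputs correlated best with their own footprints. In the smallest library 8.05% to 8.09% of reads were converted (95% Wilson interval). Promoter windows come from RefSeq and matched all 10 genes.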

Additional observations from a re-analysis of the deposited data

Results flagged for a closer look

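In 1 of 30 sets of lysate values examined, 1 lysate stood far from the others. The log2 odds ratio of conversion of Sdf2l1, footprints against input, was -1.39 in the 30 min lysate of experiment 2, where the nearest of the other 7 labelled lysates had -0.77. The gap was 0.539 of the whole range over 8 lysates, above Dixon's critical value of 0.526. Chance flags about 1 in 20 such sets. Without this lysate Sdf2l1 was at -0.46 (edgeR adjusted p = 0.0628).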

How the results depend on the processing

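Calls in the footprint to input ratio held for the 8 members under every alternative run. With lysate as a replicate block 3948 genes were higher and 4368 lower, the change of ratio gained 1 higher gene, and no other member call changed. With experiment as a replicate block input slopes gave 382 higher and 1137 lower genes with 4 members higher (Hspa5 0.11, Pdia3 0.31), Hspa5 in footprints was 0.16, and the change of ratio gave 1 higher and 2 lower genes. With its product with material as well, added later, the change of ratio gave 1 higher and 4 lower (Hspa5 0.067, Hsp90b1 -0.033, Pdia3 -0.11, Pdia6 0.037, P4hb 0.033, Sdf2l1 0.13). DESeq2's Wald test gave 347 higher and 938 lower input slopes with 4 members higher (Hspa5 0.0095), and 3 higher and 6 lower changes of ratio (Pdia4 -0.0078). DESeq2's size factors gave 62 higher input slopes (Hspa5 0.0096) and Pdia4 -0.0081. With no filter 26 input slopes and 271 footprint slopes were higher, 0 of them members in footprints, and Pdia4 had -0.00036. Experiment 1 alone gave Sdf2l1 a ratio of -0.057, input slopes of 0.11 for Hspa5 and 0.37 for Pdia3, and 1083 higher footprint slopes (Hspa5 0.18). It gave 1 higher and 2 lower changes of ratio (Hspa5 0.085, Hsp90b1 -0.014, Pdia3 -0.14, Pdia6 0.053, P4hb 0.041, Calr 0.019, Sdf2l1 0.13, Dnajb11 0.00018), 30 higher and 1991 lower odds of conversion, and 0 members with higher relative labelling. Per T position 6 genes had higher odds. With at least 2 conversions the odds gave 0 higher and 2290 lower genes, and relative labelling 848 above and 872 below. Relative to the library median, 50 genes had higher and 24 lower odds with 0 members lower (Hspa5 0.21, Hsp90b1 0.088, Pdia6 0.27, Calr 0.12, Sdf2l1 0.33, Dnajb11 0.20), which follows from the subtraction; the other causes were not tested.

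Leaving out 1 lysate at a time, input slopes had 0 to 97 higher and 0 to 678 lower genes (Hspa5 -0.10 to 0.050, Pdia3 -0.17 to 0.16). Footprint slopes had 3 to 1084 higher and 61 to 1521 lower, with 0 to 2 members higher (Hspa5 -0.16 to 0.03, Hsp90b1 -0.039 to 0.16, Pdia4 -0.0028 to 0.096, Calr -0.0083 to 0.15). Changes of ratio had 0 to 2 higher and 0 to 4 lower (Hspa5 -0.070 to 0.0075, Hsp90b1 -0.15 to 0.12, Pdia3 -0.18 to 0.30, Pdia4 -0.044 to 0.023, Pdia6 -0.051 to 0.015, Canx -0.075 to 0.049, Sdf2l1 -0.089 to 0.19), and higher odds of conversion 7 to 13. Slopes rest on few long labelling times, and changes of ratio had errors as large as their values.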
